A study of Mus musculus with 8 samples.

Results

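BAF is a chromatin remodelling complex that uses ATP to move nucleosomes, and its makeup differs between cell types because several of its positions can be filled by alternative subunits. In the developing mouse nervous system, cells that leave the cell cycle and become neurons are known to exchange the actin-related subunit Actl6a (BAF53a) for Actl6b (BAF53b), the PHD-finger subunits Phf10 (BAF45a) and Dpf2 (BAF45d) for Dpf1 (BAF45b) and Dpf3 (BAF45c), and Ss18 for Ss18l1 (CREST). Smarca4 (BRG1) and Smarca2 (BRM) are the alternative ATPases of the complex, with Smarca4 the main one in neural progenitors. The genes described here are these 10 subunit genes, 5 known from progenitors and 5 from neurons or other differentiated cells. The sets are called progenitor-form and neuron-form below. Smarca2 is in the second set as the alternative ATPase, not as a subunit particular to neurons. They were found by gene symbol among 53507 gene rows, with 1 row for each.

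The data are RNA sequencing read counts from 8 libraries of mouse brain cells positive for tdTomato, a red fluorescent protein, and the cells are labelled as progenitor cells. There were 2 libraries each from embryonic day 13 (E13) and embryonic day 15 (E15), both labelled wt, and from postnatal day 12 (P12) after rearing in normoxia or in hypoxia. Hypoxic pups were kept at 10% oxygen for 8 days, from P3 until P11, and nursing mothers were exchanged between the hypoxic and control litters at P6 and P9. The labels give neither the mouse strain nor the promoter or Cre line that drives tdTomato, and do not say whether the replicates came from separate animals, so p-values measure only the spread between these libraries. The RNA input was 400 pg per library.

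Between 36252027 and 47084796 reads were counted per library. At least 10 counts were found for 17520 to 18318 genes in the embryonic libraries, for 14129 and 16468 in normoxia and for 12785 and 11695 in hypoxia. Levels are given as CPM, that is counts per mega-count of library size after TMM scaling in edgeR, in the order of replicate 1 and replicate 2. Scaling by total counts alone moved the median log2 fold change of all genes by -0.81 in normoxia against embryo and by -0.89 in hypoxia against embryo (chosen after the TMM factors had been seen). All 10 genes passed the low-count filter, which kept 19936 genes, and all are protein-coding.

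Marker genes did not show a plain step from progenitors to neurons with age. The summed level of 14 neuronal marker genes was 2731 to 3263 CPM in the embryo, 674.6 and 799.5 CPM in normoxia and 271.8 and 700.7 CPM in hypoxia. Map2, Tubb3 and Dcx, cytoskeletal genes already on in young neurons, made up most of the embryonic sum. The list was mixed in normoxia against embryo, with 4 of 14 called lower and 2 higher (5.68% and 12.1% of all genes). Libraries did not overlap for 5 markers higher and 7 lower (27.3% and 32.1% of all genes). Those higher were Snap25, Syt1, Camk2a, Gad1 and Gad2, genes of mature or GABAergic neurons. Those lower were Map2, Tubb3 and Dcx, but also Slc17a7, Syp, Rbfox3 and Ina. Slc17a7, a glutamate transporter, had 59.3 to 152.2 CPM in the embryo and 0.0 CPM in both normoxic libraries. Syp, a synaptic vesicle gene, had 60.8 to 77.6 CPM in the embryo and 27.3 and 10.8 CPM in normoxia. Of 4 intermediate progenitor markers, Eomes, Neurog2 and Insm1 had 77.0 to 283.2 CPM in the embryo and 0.603 to 77.7 CPM at P12. Btg2, an antiproliferative gene that is also read outside that cell type, had 88.5 to 316.8 CPM and 4521 to 6557 CPM, so that the list sum went from 531.3 to 1083 CPM in the embryo to 4571 to 6719 CPM at P12. Astrocyte markers (7 genes) summed to 10.8 to 40.2 CPM in the embryo and to 7826 to 10300 CPM at P12, and oligodendrocyte progenitor markers (7 genes) to 0.0321 to 2.22 CPM and to 317.9 to 1558 CPM. The age comparisons below thus set embryonic libraries high in young-neuron genes against P12 libraries high in glial genes, and the part of cell makeup in them was not tested. In such bulk samples, fewer cells of a type and less RNA per cell cannot be told apart.

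MicroRNAs take part in the subunit exchange in mouse, where miR-9-3p (miR-9*) and miR-124 are known to repress Actl6a through its 3′ untranslated region (UTR), and the repressor Rest holds these microRNAs down outside neurons. The RefSeq mature sequence of the first of them (GRCm38.p6, chr3:88215652-88215673, plus strand, encoded at 3 loci) is shown with its seed, bases 2 to 8, in capitals. Below it is the stretch of the Actl6a 3′ UTR in the GENCODE M21 annotation (GRCm38, chr3:32726625-32726650, plus strand) that holds the complement of that seed, also in capitals.
mmu-miR-9-3p: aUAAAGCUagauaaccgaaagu
Actl6a 3′ UTR: cacctcaacgtctgtAGCTTTAgtac
The Actl6a 3′ UTR of 371 bases held 1 such match, as did 2.4% of 1796 3′ UTRs within 20% of its length. The Smarca2 3′ UTR of 952 bases also held 1 (7.3% of 2693 UTRs of like length), and the other members' UTRs held 0. A match describes the letters only and is not a tested site.

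**Figure D1:**
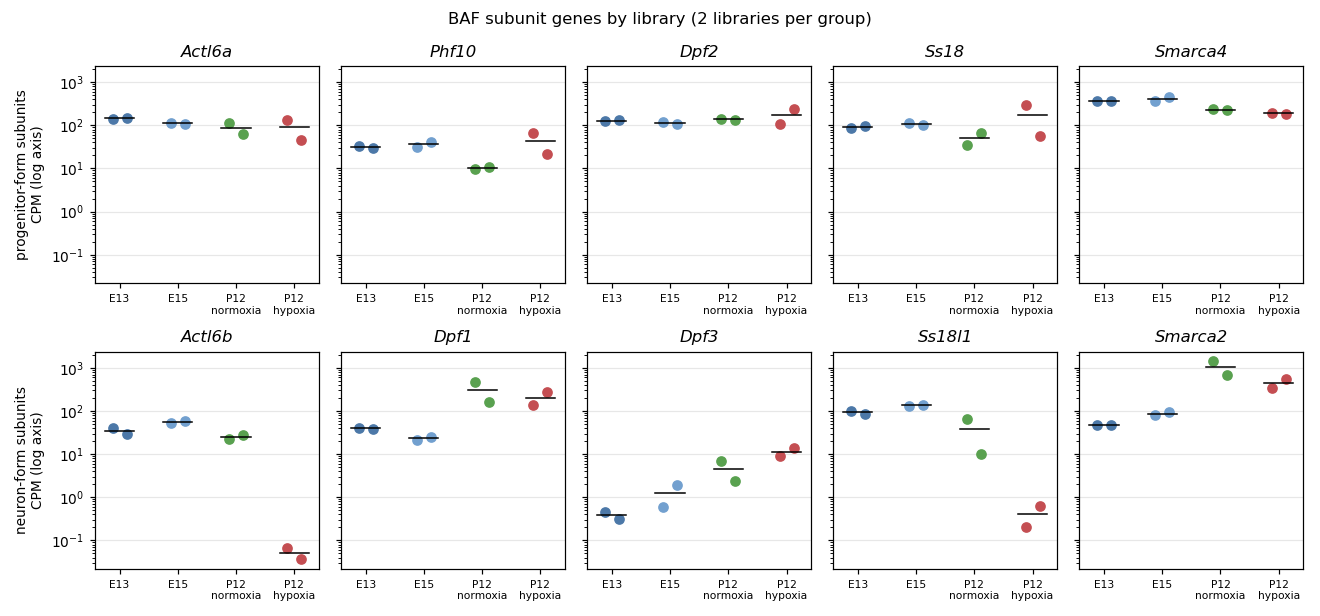
Level of each of the 10 subunit genes in CPM on a log axis, with 1 point per library (2 per group) and a line at the group mean; progenitor-form genes are in the upper row and neuron-form genes in the lower. Smarca2, Dpf1 and Dpf3 are higher in every P12 library than in every embryonic library, while Actl6b and Ss18l1 lie below 1 CPM in both hypoxic libraries.

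Between E13 and E15 none of the 10 genes passed the test, although small shifts separated most of them. Smarca2, the alternative ATPase, had 47.8 and 46.8 CPM at E13 and 78.9 and 93.5 CPM at E15. Actl6b, the neuronal actin-related subunit, had 41.1 and 28.6 CPM at E13 and 52.8 and 59.9 CPM at E15. Dpf1, a neuronal PHD-finger subunit, went the other way, with 40.0 and 39.1 CPM at E13 and 21.1 and 25.2 CPM at E15. In each of these the E15 libraries lay outside the E13 range. The log2 fold changes were 0.87 ± 0.41 (SE) for Smarca2, 0.69 ± 0.56 for Actl6b and -0.77 ± 0.59 for Dpf1, n = 2 libraries per group. The quasi-likelihood test of edgeR, Benjamini-Hochberg adjusted over all genes, called 0 of 10 and 0.0% of all genes, and 0 of 10 had an unadjusted p under 0.05 against 3.46% of all genes. DESeq2 and limma-voom also called 0 of the 10, beside 373 and 935 of all genes. With so small a part of all genes called, 0 of 10 does not set the members apart. The libraries of E13 and E15 did not overlap for 9 of the 10, 6 higher and 3 lower at E15, beside 23.6% and 25.8% of all genes (49.4% in either direction). The median log2 fold change of the 10 was 0.21, beside 0.0 for all genes. All 9 cycling-cell markers were lower at E15 with no overlap, summing to 1262 and 1401 CPM at E13 and to 533.4 and 491.6 CPM at E15, and their part in these shifts was not tested.

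P12 cells reared in normoxia had far more Smarca2 and Dpf1 than embryonic cells and less Smarca4, while Actl6b and Ss18l1 did not rise. Smarca2 stood at 1412 and 668.0 CPM in normoxia, against 46.8 to 93.5 CPM in the embryo. That is 16.3-fold higher than the mean of E13 and E15 (log2 fold change 4.02 ± 0.35, SE; edgeR adjusted p = 0.00147), and it passed in all 15 alternative analyses (other tools, scaling or filters, or 1 library left out). Without normoxic replicate 1 the log2 fold change was 3.25, and under total-count scaling 3.14. Smarca4, the main ATPase of neural progenitors, had 369.3 and 368.0 CPM at E13, 375.1 and 455.4 CPM at E15, and 240.5 and 222.4 CPM in normoxia. It fell by 0.76 ± 0.19 on the log2 scale, or 1.69-fold (edgeR adjusted p = 0.0451), close to the threshold. The call was lost in 10 of 15 alternatives, among them RLE scaling (0.0688), limma-voom (0.226) and the fits without either normoxic library (0.0781 and 0.0971) or without any 1 embryonic library (0.167 to 0.218). The ATPase genes lie on chromosome 19 (Smarca2, chr19:26605050-26778322, plus strand) and chromosome 9 (Smarca4, chr9:21616169-21704230, plus strand) in GRCm38.

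Of the PHD-finger subunits, Dpf1 had 461.1 and 158.4 CPM in normoxia against 21.1 to 40.0 CPM in the embryo. It rose 10.2-fold (log2 fold change 3.36 ± 0.50; edgeR adjusted p = 0.00923), and the call was lost without normoxic replicate 1 (2.25, adjusted p = 0.06) or without any 1 embryonic library (0.0633 to 0.0686). Dpf3, known for reading acetylated histone tails, was the scarcest member in the embryo and in normoxia. It had 0.447 and 0.321 CPM at E13, 0.581 and 1.91 CPM at E15, and 6.92 and 2.35 CPM in normoxia. The groups did not overlap, but the log2 fold change of 2.74 ± 0.83 missed the threshold (edgeR adjusted p = 0.0715). Phf10, the progenitor PHD-finger subunit, had 30.2 to 42.1 CPM in the embryo and 9.53 and 11 CPM in normoxia. All normoxic values were below all embryonic ones, but the log2 fold change of -1.73 ± 0.64 did not pass (edgeR adjusted p = 0.121). Dpf2, a broadly expressed member of the family, had 105.8 to 129.5 CPM in the embryo and 143.2 and 131.6 CPM in normoxia, and its log2 fold change of 0.18 ± 0.37 became -0.65 under total-count scaling.

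The neuronal actin-related subunit Actl6b had 22.2 and 27.5 CPM in normoxia, below all 4 embryonic libraries. Its log2 fold change was -0.83 ± 0.50 (edgeR adjusted p = 0.292). Its progenitor counterpart Actl6a had 143.4 and 148.2 CPM at E13, 115.9 and 107.5 CPM at E15, and 110.6 and 61.9 CPM in normoxia, and did not pass either (-0.57 ± 0.51). Ss18l1, a calcium-responsive transactivator needed for dendrite growth, had 86.4 to 140.6 CPM in the embryo. In normoxia its replicates were far apart, at 65.0 and 9.97 CPM, both under the embryonic range (log2 fold change -1.58 ± 0.86, edgeR adjusted p = 0.249). Ss18, its paralogue in progenitors, had 86.4 to 112.5 CPM in the embryo and 34.4 and 66.0 CPM in normoxia (-0.98 ± 0.68, not called).

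In all, 2 of the 10 genes were called higher and 1 lower in normoxia than in the embryo, where 12.1% of all genes were called higher and 5.68% lower (17.8% in either direction). Of the genes called, Dpf1 and Smarca2 are in the neuron-form set of 5, where Smarca2 is not particular to neurons. Smarca4 is in the progenitor-form set of 5. An unadjusted p under 0.05 was found for 5 of the 10 and for 33.6% of all genes. The libraries did not overlap for 4 genes higher and 5 lower in normoxia, beside 27.3% and 32.1% of all genes (59.4% in either direction). Among the genes not called, DESeq2 called Phf10 (adjusted p = 0.00361), Dpf3 (0.00243) and Actl6b (0.0273), and the fit of only the compared groups called Phf10 (0.0167) and Ss18 (0.0487). Phf10 was also called without either hypoxic library (0.0189 and 0.0183). The median log2 fold change was -0.66 for the 10 genes and -0.04 for all genes.

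**Figure D2:**
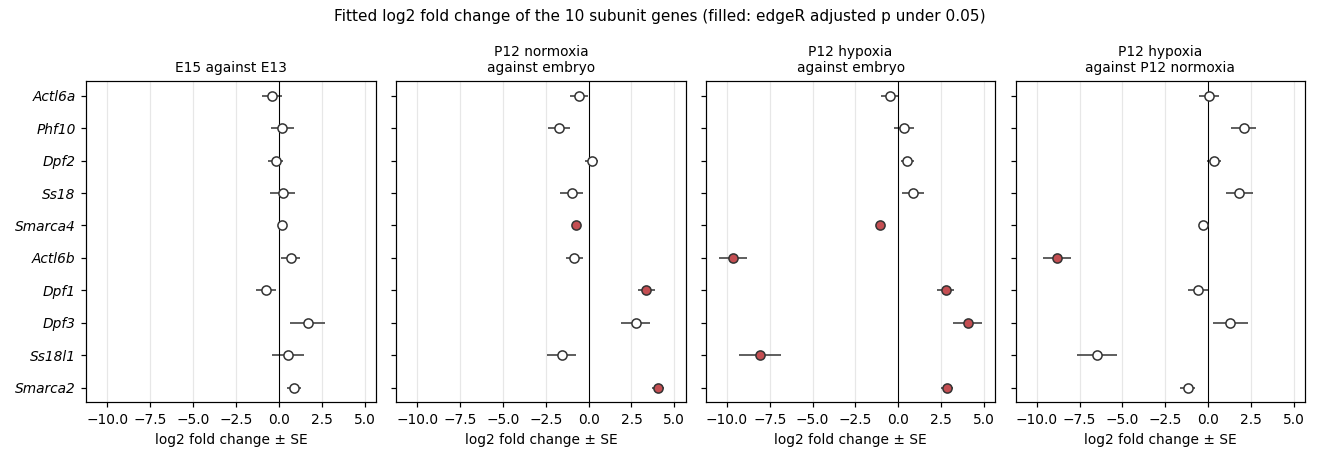
Fitted log2 fold change with its SE for the 10 subunit genes in the 4 comparisons, filled where the edgeR adjusted p was under 0.05. Smarca2 and Dpf1 lie right of 0 in both comparisons of P12 with the embryo, and the fitted values of Actl6b and Ss18l1 in hypoxia rest on 3 and 23 counts.

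In P12 cells after hypoxia, Smarca2 and Dpf1 were again above the embryo and Smarca4 below it, and Actl6b and Ss18l1 were nearly undetected. Actl6b had 0.0673 and 0.037 CPM in hypoxia, which are 2 reads and 1 read, against 28.6 to 59.9 CPM in the embryo. Its level in the embryo was 870.5 times that in hypoxia (95% exact counting interval 297.8 to 4222; edgeR adjusted p = 0.00114). Ss18l1 had 0.202 and 0.629 CPM in hypoxia, or 6 and 17 reads, and its level in the embryo was 283.7 times as high (189.0 to 447.7; edgeR adjusted p = 0.00792). Such intervals cover counting error alone, because without molecular identifiers the reads are not independent molecules. Ss18l1 passed in all 15 alternatives, with a log2 fold change of -8.08 ± 1.24 that was -7.47 and -9.12 without hypoxic replicate 1 and 2. Actl6b passed in 14, missing in limma-voom (adjusted p = 0.06).

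Smarca2 had 348.6 and 555.6 CPM in hypoxia and rose by 2.82 ± 0.34 on the log2 scale against the embryo, or 7.08-fold (edgeR adjusted p = 0.00369; called in all 15 alternatives). Smarca4 had 193.5 and 184.8 CPM and fell by 1.05 ± 0.19, or 2.07-fold (edgeR adjusted p = 0.0143). Dpf1 had 134.5 and 276.0 CPM and rose by 2.76 ± 0.49, or 6.78-fold (edgeR adjusted p = 0.0129). Dpf3, at 9.12 and 13.8 CPM, was above every other group and rose by 4.04 ± 0.85 against the embryo, or 16.4-fold (edgeR adjusted p = 0.022). Without any 1 embryonic library the calls of Smarca4 (0.0694 to 0.0922), Dpf1 (0.0691 to 0.076) and Dpf3 (0.0917 to 0.136) were lost, and that of Dpf1 also without hypoxic replicate 2 (2.14, adjusted p = 0.0558). limma-voom did not call Smarca4 (0.263) or Dpf3 (0.0985), and the replicate block also ended the call of Dpf3 (0.0562). Under total-count scaling Smarca2 had a log2 fold change of 1.86.

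The other 4 genes, all of the progenitor form, did not pass against the embryo and their hypoxic replicates were far apart. Actl6a had 135.8 and 45.6 CPM, Phf10 64.9 and 21.3 CPM, and Ss18 293.6 and 57.9 CPM, each with replicate 1 the higher. Dpf2 was the reverse, with 106.2 and 242.7 CPM. The hypoxic and embryonic libraries overlapped for each, and the sign of all 4 fold changes turned when the more extreme hypoxic library was left out: to 0.08 for Actl6a, -0.67 for Phf10, -0.77 for Ss18 and -0.2 for Dpf2. With the other hypoxic library left out, Ss18 (1.55, edgeR adjusted p = 0.0256) and Dpf2 (1.01, 0.0182) were called higher than in the embryo. Against the embryo 3 of the 10 genes were called higher and 3 lower, beside 13.2% and 12.9% of all genes (26.1% in either direction). All 3 that rose and 2 of the 3 that fell are of the neuron form. An unadjusted p under 0.05 was found for 6 of the 10 and for 40.9% of all genes. The libraries did not overlap for 3 genes higher and 3 lower, beside 21.3% and 36.3% of all genes (57.6% in either direction). The median log2 fold change was 0.44 for the 10 and -0.43 for all genes. The comparisons of normoxia and of hypoxia with the embryo share the same embryonic libraries.

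At P12, hypoxic cells differed from normoxic cells most in the neuronal subunits Actl6b and Ss18l1. The level of Actl6b, 22.2 and 27.5 CPM in normoxia, was 469.6 times that in hypoxia (95% exact counting interval 160.4 to 2280), and it was the only member called (edgeR adjusted p = 0.0195). Ss18l1, at 65.0 and 9.97 CPM in normoxia, was 93.4 times as high as in hypoxia (62.1 to 147.6) and lay on the threshold without passing it (edgeR adjusted p = 0.05 as rounded). Both normoxic values of each gene exceeded both hypoxic ones. Over the alternatives the adjusted p of Actl6b ran from 1.22e-19 in DESeq2 to 0.424 in limma-voom. Its call was lost in the fit restricted to P12 libraries (0.341), with the replicate block (0.0929) and without any 1 embryonic library (0.151 to 0.155), and Ss18l1 was called by DESeq2 (1.94e-07), under total-count scaling (0.0332) and without normoxic replicate 2 (0.0254). The size of the Ss18l1 difference rests on normoxic replicate 1: the fitted log2 fold change was -6.49 ± 1.18 with it and -4.33 without it.

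None of the other 8 genes passed between hypoxia and normoxia. Smarca2 was lower in both hypoxic libraries, with a log2 fold change of -1.20 ± 0.42 (edgeR adjusted p = 0.225), and the nearest libraries of both groups were at 555.6 and 668.0 CPM. Phf10 was higher in both hypoxic libraries, at 64.9 and 21.3 CPM against 9.53 and 11 CPM (2.07 ± 0.71, edgeR adjusted p = 0.221), and so was Dpf3 (1.30 ± 1.01). DESeq2 on all libraries did call Phf10 (adjusted p = 0.00189). The Ss18 value rested on hypoxic replicate 1, where 293.6 CPM stood against 34.4 to 66.0 CPM in the other P12 libraries (1.81 ± 0.78; edgeR adjusted p = 0.294). Without hypoxic replicate 2 both Phf10 (0.0257) and Ss18 (0.0244) were called, and without hypoxic replicate 1 neither was (0.157 and 0.663). In this comparison 0 members were called higher and 1 lower, beside 0.196% and 2.82% of all genes (3.02% in either direction). An unadjusted p under 0.05 was found for 4 members and for 18.2% of all genes. The P12 libraries did not overlap for 2 members higher and 4 lower in hypoxia, beside 13.1% and 20.1% of all genes (33.2% in either direction). The median log2 fold change was -0.11 for the 10 and 0.0 for all genes.

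Neuronal markers moved together with Actl6b and Ss18l1 in part. Of the 14 markers, 4 were called lower in hypoxia than in normoxia (2.82% of all genes) and 10 were lower with no overlap (20.1% of all genes). Nefl, a neurofilament, and Slc17a7, the cortical vesicular glutamate transporter, were at 0 in both hypoxic libraries, Slc17a7 also in normoxia. Snap25, a synaptic membrane fusion protein, had 85.8 and 87.6 CPM in normoxia and 0.605 and 0.333 CPM in hypoxia, and Syp, a synaptic vesicle protein, 27.3 and 10.8 CPM against 0.0 and 0.037 CPM. Map2 and Tubb3, cytoskeletal proteins of neurons, were read in every P12 library. Map2 had 80.3 and 150.7 CPM in normoxia and 177.5 and 310.2 CPM in hypoxia, and Tubb3 56.9 and 87.7 CPM against 62.5 and 155.4 CPM. Cycling-cell markers (9 genes) summed to 757.0 and 707.4 CPM in normoxia and to 1431 and 1419 CPM in hypoxia. Of these, 5 were higher in hypoxia with no overlap (13.1% of all genes) and 1 was called higher (0.196% of all genes). The other 4 overlapped, among them Mcm2, with 166.2 and 0.296 CPM in hypoxia. Oligodendrocyte progenitor markers summed to 456.3 and 317.9 CPM in normoxia and to 920.5 and 1558 CPM in hypoxia, with 5 of 7 higher with no overlap (13.1% of all genes), and oligodendrocyte markers (6 genes) to 201.0 and 588.7 CPM and to 1157 and 1969 CPM. The part of cell makeup, and of the smaller number of genes detected in the hypoxic libraries, in the fall of Actl6b was not tested.

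Because Actl6b and Ss18l1 were the members nearly lost after hypoxia, the 250 bases before their RefSeq starts are shown (GRCm38.p6, plus strand: Actl6b chr5:137553296-137553545, Ss18l1 chr2:180042233-180042482). Capitals mark ACGTG, a form of the core of the hypoxia-response element bound by HIF factors, searched on both strands.
Actl6b: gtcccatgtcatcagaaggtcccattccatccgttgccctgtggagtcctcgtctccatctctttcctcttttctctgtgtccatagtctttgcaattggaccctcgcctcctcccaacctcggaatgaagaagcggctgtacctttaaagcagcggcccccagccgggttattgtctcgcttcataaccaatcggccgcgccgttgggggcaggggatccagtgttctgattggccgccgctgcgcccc
Ss18l1: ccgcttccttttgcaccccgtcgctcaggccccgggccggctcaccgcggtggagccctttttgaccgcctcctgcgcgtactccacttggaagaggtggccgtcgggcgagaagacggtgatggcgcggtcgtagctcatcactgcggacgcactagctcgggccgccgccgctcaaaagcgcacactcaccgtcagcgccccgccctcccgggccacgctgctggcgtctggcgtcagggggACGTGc
The core was found in the Ss18l1 window and not in the Actl6b window. Windows were found for 9 of the 10 genes, and those of Dpf1, Phf10 and Ss18l1 held 1 match each. Over all 32851 promoter windows, 16.572% held the core.

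Set against each other per length, the paralogues of the 4 families did not switch together. Shares are of CPM per kilobase of annotated exon and are descriptions of each library. The Smarca2 share of the ATPase pair was 5.55% and 5.46% at E13, 8.72% and 8.52% at E15, 72.7% and 57.7% in normoxia, and 45.0% and 57.7% in hypoxia. For Dpf1 and Dpf3 together, the share of the PHD-finger family was 14% to 22.3% in the embryo, 78.5% and 57.2% in normoxia, and 47.9% and 56.7% in hypoxia. In both families every P12 library was above every embryonic one.

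The other families followed a different order. Actl6b made up 20.7% and 14.9% of its pair at E13, 29.3% and 33.7% at E15, and 15.4% and 28.8% in normoxia, so the normoxic libraries lay within the embryonic range. In hypoxia its share was 0.0451% (95% exact counting interval 0.00546% to 0.163%) and 0.0738% (0.00187% to 0.411%). Ss18l1 made up 65.9% to 75.1% of its pair in the embryo, 80.4% and 24.7% in normoxia, and 0.149% and 2.3% in hypoxia. The neuronal paralogue was thus the more abundant per length in embryonic cells in the Ss18 pair, and the less abundant in the actin-related pair in every library. Length matters for these levels: with the longest transcript in place of all exons, the Smarca2 share was 12% to 18.5% in the embryo and 66.0% to 86.3% at P12, and Ss18l1 had 46.0% to 57.1% in the embryo.

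**Figure D3:**
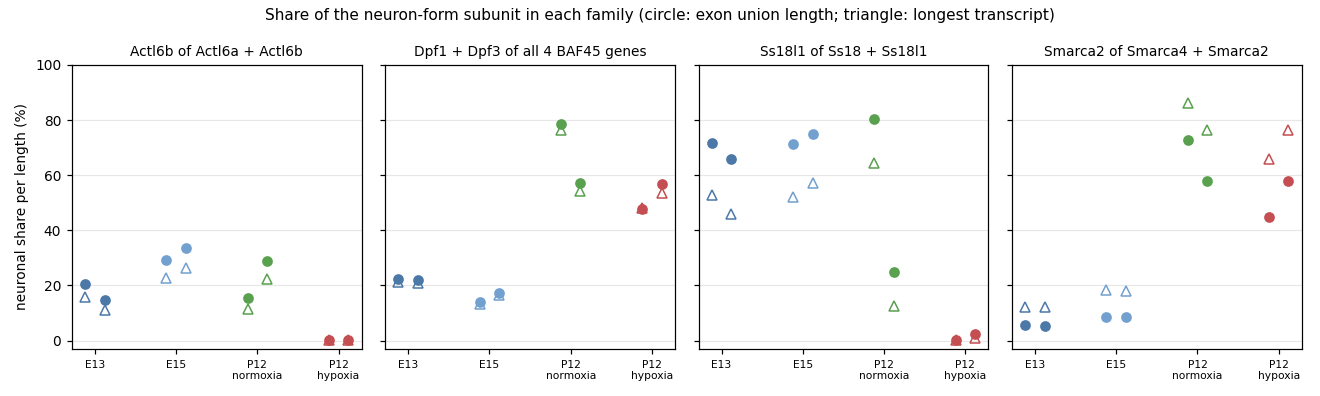
Share of the neuron-form gene or genes in each of the 4 families, in percent of the family's CPM per kilobase, with 1 circle per library (all exons) and 1 triangle (longest transcript). The Smarca2 and the Dpf1 and Dpf3 shares are higher at P12 than in the embryo, whereas Actl6b and Ss18l1 shares are at most 2.3% in hypoxia.

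Per kilobase of all annotated exons, Smarca4 was the most abundant member in all embryonic libraries, at 56.8 to 70.3 CPM per kilobase. Dpf3 was the least abundant, at 0.0759 to 0.453. The top rank depends on the length used, since Actl6a has 3886 bases of exon but 2010 in its longest transcript. For Smarca4 these are 6475 and 6376 bases, and by the longest transcript Actl6a ranked above Smarca4 at E13. At P12 Smarca2 reached 98.9 and 46.8 CPM per kilobase in normoxia and 24.4 and 38.9 in hypoxia, and Dpf1 85.8 and 29.5 in normoxia and 25 and 51.3 in hypoxia. Smarca4 had 37.1 and 34.3 CPM per kilobase in normoxia and 29.9 and 28.5 in hypoxia. By this length its order against Smarca2 in hypoxia differed between the replicates. It did not differ by the longest transcript, where the Smarca2 share of the pair in hypoxia was 66.0% and 76.4%. Without length correction that share was 64.3% and 75.0%. The summed level of both ATPases was 60.1 to 76.9 CPM per kilobase in the embryo, 136.1 and 81.2 in normoxia, and 54.3 and 67.5 in hypoxia. The summed level of the actin-related pair was 41.7 to 46.5 in the embryo, 33.7 and 22.4 in normoxia, and 35.0 and 11.7 in hypoxia.

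Of the 21 other subunit genes of the BAF, PBAF and non-canonical BAF complexes, the ARID1 subunits and actin rose at P12. Compared with the embryo, 4 were called higher and 0 lower in normoxia, and 5 higher and 2 lower in hypoxia. Over all genes 12.1% were called higher and 5.68% lower in normoxia, and 13.2% and 12.9% in hypoxia. Arid1b, a DNA-binding subunit of canonical BAF, had 66.6 to 86.9 CPM in the embryo, 419.1 and 237.7 CPM in normoxia and 183.2 and 263.3 CPM in hypoxia. Its log2 fold changes against the embryo were 2.11 ± 0.30 in normoxia and 1.56 ± 0.30 in hypoxia (edgeR adjusted p = 0.00829 and 0.0171). Its paralogue Arid1a rose by 0.97 ± 0.22 and 1.43 ± 0.22 (edgeR adjusted p = 0.0343 and 0.00768). Actb, beta-actin, which is a subunit as well as a cytoskeletal protein, rose by 2.32 ± 0.36 and 2.81 ± 0.36 (0.0105 and 0.00428), and Bcl7b by 1.38 ± 0.31 and 1.80 ± 0.30 (0.0324 and 0.011). Pbrm1, the bromodomain subunit of PBAF, had 264.3 to 318.8 CPM in the embryo and 478.6 and 1018 CPM in hypoxia, and rose by 1.31 ± 0.35 (edgeR adjusted p = 0.0402). In normoxia it had 835.3 and 510.6 CPM and did not pass (1.16 ± 0.35, 0.0698). How the calls of these other subunits fared under the alternative analyses was not examined. Scaling by total counts alone moved the median log2 fold change of all genes by -0.81 in normoxia and -0.89 in hypoxia against the embryo. The rise of Arid1a in normoxia, 0.97, is of about that size.

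The subunits called lower were Bcl11a and Bcl11b, zinc-finger proteins that are also transcription factors of cortical and striatal neurons. Bcl11b had 458.6 and 377.0 CPM at E13, 216.4 and 200.2 CPM at E15, 41.4 and 97.1 CPM in normoxia, and 0.0 and 0.074 CPM in hypoxia, the last being 2 reads. Its level in normoxia was 1955 times that in hypoxia (541.0 to 16150; edgeR adjusted p = 0.0217), and it was the only gene of the 21 called between the P12 groups. Bcl11a fell by 4.83 ± 1.16 in hypoxia against the embryo (edgeR adjusted p = 0.0314), with 2.15 and 32.2 CPM in hypoxia. The core subunits Smarcb1, Smarcc1, Smarcc2 and Smarce1 passed in no comparison. Over the 21 genes the median log2 fold change was 0.06 in E15 against E13, where 0 were called and Smarcd3 alone had an unadjusted p under 0.05 (1.25 ± 0.45). It was -0.33 in normoxia and 0.32 in hypoxia against the embryo, and 0.14 in hypoxia against normoxia. The corresponding medians over all genes are those given for the members.

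**Figure D4:**
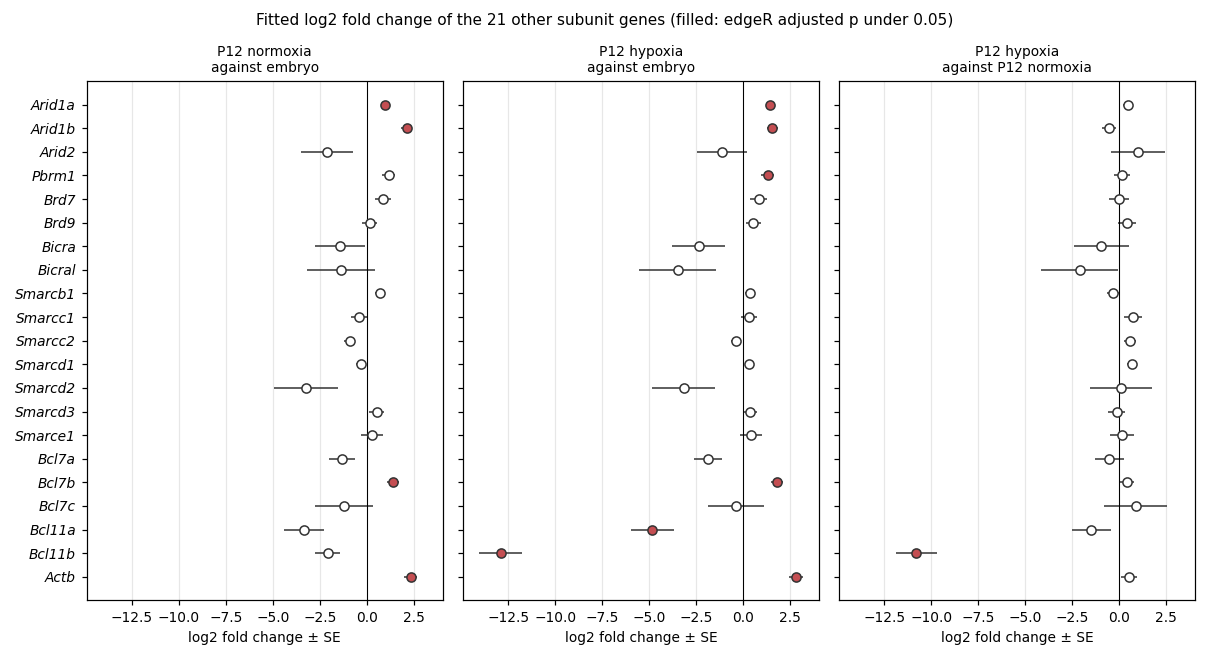
Fitted log2 fold change with its SE for the 21 other subunit genes in the 3 comparisons that involve P12 cells, filled where the edgeR adjusted p was under 0.05. Arid1a, Arid1b, Bcl7b and Actb are filled right of 0 in both comparisons with the embryo, and Bcl11b, which had 2 reads in hypoxia, is filled left of 0 in both comparisons of hypoxia.

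Of the known regulators of the exchange, Rest was higher in hypoxia than in the embryo. It had 4.29 to 7.77 CPM in the embryo, 12.1 and 54.4 CPM in normoxia and 93.8 and 39.2 CPM in hypoxia. It rose by 3.63 ± 0.75 in hypoxia against the embryo (edgeR adjusted p = 0.0206), and missed the threshold in normoxia against the embryo (2.63 ± 0.74, 0.059) and between the P12 groups (1.0 ± 0.89, 0.665). Host transcripts of the miR-9 hairpins did not move as one. Gm3764, which holds Mir9-1, had 232.6 to 312.3 CPM in the embryo, 462.1 and 648.9 CPM in normoxia and 807.7 and 727.6 CPM in hypoxia. It rose by 1.04 ± 0.19 and 1.51 ± 0.19 against the embryo (edgeR adjusted p = 0.0195 and 0.00438). The host of Mir9-2, C130071C03Rik, and that of Mir9-3, Mir9-3hg, passed in no comparison, nor did Mir124-2hg, which holds a miR-124 hairpin. The other miR-124 host, Mir124a-1hg, had 31.1 to 42.6 CPM in the embryo, 0.0953 and 17.5 CPM in normoxia and no read in hypoxia, where it was at least 327.4-fold lower than in the embryo, with each hypoxic library set at a floor of 3 counts (edgeR adjusted p = 0.043). Host transcripts are not the mature microRNAs, which were not measured.

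The genes whose pattern over the 8 libraries was most like that of 3 members were ranked by Pearson's r of log2(CPM + 1) among 9531 genes with a mean of at least 10 CPM, as a description, since all points share the same libraries. Lca5, a ciliary protein (r = 0.996), Chpf2, an enzyme of chondroitin synthesis (r = 0.995), and Apex2, a DNA repair nuclease (r = 0.995), were closest to Actl6b. Lca5 had 27.5 to 50.1 CPM in the embryo, 30.5 and 28.6 CPM in normoxia and 0.135 and 0.185 CPM in hypoxia. The closest to Dpf1 were Mrpl28, a mitochondrial ribosomal protein (r = 0.992), Aldoa, a glycolytic aldolase (r = 0.989), and Sephs2, a selenophosphate synthetase (r = 0.989). The closest to Actl6a were Rgs16, a regulator of G protein signalling (r = 0.98), Palld, an actin-binding protein (r = 0.98), and Ncapg, a condensin subunit (r = 0.979), and all 3 were low in normoxic replicate 2 and in hypoxic replicate 2, at 0.074 to 5.57 CPM.

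Reads from neighbouring or similar genes may enter 3 members, since strand and multi-mapping settings are not given in the sources used here. Actl6a shares 452 exonic bases, 11.6% of its exons, with Mrpl47 on the opposite strand, and Phf10 shares 470 bases (9.6%) with 1600012H06Rik. Mrpl47 had at most 28.1 CPM, whereas 1600012H06Rik had 52.9 CPM in hypoxic replicate 1 and 0.518 CPM in hypoxic replicate 2, in the order of Phf10. In normoxia it had 2.38 and 28.1 CPM, where Phf10 had 9.53 and 11 CPM. Gm1826, a processed pseudogene 97.954% identical to Ss18 over 391 bases, had 31.1 CPM in hypoxic replicate 1 and 0.185 CPM in replicate 2, in the order of its parent gene. In normoxia Gm1826 had 0.508 and 6.29 CPM. The values of Actl6a, Phf10 and Ss18 are uncertain to that extent.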

How the data were processed

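RNA was extracted with a column kit and libraries were made with the NEBNext Ultra II kit, per the labels. The authors deposited raw read counts per gene, 1 table per library; cutadapt, STAR, Subread and the GRCm38 build are named in the submitters' processing notes, and versions, annotation release, strand setting and treatment of multi-mapping reads are not given in the sources used here. Replicates are numbered as in the titles; the P12 tables bear other numbers in their names. The 1980 rows that name no gene (0.205% to 0.266% of counts) were left out.

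Counts were tested with edgeR 4.0.16 in R 4.3.3: TMM scaling, filterByExpr (minimum count 10, minimum total 15; 19936 genes kept), and a two-sided quasi-likelihood fit of 4 groups over all 8 libraries (4 residual degrees of freedom), with Benjamini-Hochberg adjustment over all kept genes and a threshold of 0.05. The embryo is the mean of E13 and E15. Each SE is the absolute log2 fold change divided by the square root of the quasi-likelihood F of the same fit. It is thus an approximation, least certain where a group had few reads. Ratios carry 95% exact intervals, and a floor of 3 counts, used where a gene had 0, equals 0.0637 to 0.0828 CPM before scaling. The 10 genes, the other lists and the tests were chosen with earlier results of these data known. Named were the 10 members, the other subunits called (up to 8 of smallest p per comparison), the switch regulators and the 3 genes most like each of 3 members.

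Alternatives were DESeq2 1.42.0, limma-voom (limma 3.58.1) with sample weights, RLE scaling, no low-count filter, only the compared groups, a replicate block, each library left out in turn, and, added after seeing the data, total-count scaling. The fit was tested on simulated data. Sequences are from RefSeq (GRCm38.p6) and coordinates from GENCODE M21 on GRCm38.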

Additional observations from a re-analysis of the deposited data

How the results depend on the processing

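Of the member fold changes under all alternatives, 532 kept their direction and their side of the threshold, 15 passed it newly, 39 no longer passed it and 14 turned. The cause of these changes was not tested. Members called against the embryo in normoxia numbered 3, but 6 in DESeq2, 5 in the fit of only the compared groups and 1 to 4 with 1 library left out; in hypoxia they numbered 6, but 3 in limma-voom and 3 to 7 with 1 library left out. Between the P12 groups 1 member was called, but 3 in DESeq2, 2 under total-count scaling, 0 in limma-voom, 0 with the replicate block, 0 with only the compared groups and 0 to 3 with 1 library left out. Over all genes, E15 against E13 gave 0 calls, but 373 in DESeq2, 935 in limma-voom and 229 with only the compared groups. Normoxia against embryo gave 3541, but 7252 in DESeq2, 6731 with only the compared groups, 1705 with the replicate block and 928 to 5990 with 1 library left out. Hypoxia against embryo gave 5208, but 9001 in DESeq2, 2390 in limma-voom, 2868 with the replicate block and 1562 to 6836 with 1 library left out. Hypoxia against normoxia gave 602, but 3981 in DESeq2, 0 in limma-voom, 295 without the low-count filter, 1 with the replicate block, 0 with only the compared groups and 0 to 3018 with 1 library left out. Genes called higher made up 68.0% of calls in normoxia and 50.5% in hypoxia against the embryo, but 44.7% and 30.8% under total-count scaling. limma-voom gave 78.7% and 82.7%, DESeq2 56.9% and 49.7%. Between the P12 groups the share was 6.48%, and 34.4% in DESeq2. Under total-count scaling Dpf2 had -0.65 in normoxia and -0.46 in hypoxia against the embryo, and Phf10 -0.5 in hypoxia. With 1 library left out, log2 fold changes that crossed 0 ran from -0.03 to 0.42 for Phf10 in E15 against E13 and from -0.02 to 0.24 for Dpf2 in normoxia against embryo. In hypoxia against embryo they ran from -1.48 to 0.08 for Actl6a, -0.67 to 0.92 for Phf10, -0.2 to 1.01 for Dpf2 and -0.77 to 1.55 for Ss18. In hypoxia against normoxia they ran from -0.82 to 0.72 for Actl6a (0.0 in limma-voom), -0.36 to 0.93 for Dpf2 and -1.24 to 0.62 for Dpf1. The replicate numbers showed no pairing of the libraries: deviations from the group means correlated at -0.039 to 0.008 over 6 pairs of groups. With 2 libraries per group, and other numbers in the names of the P12 tables, this cannot exclude a shared litter or batch. Where 1 library was left in a group, its spread was taken from the other groups. Of the family shares recomputed with another gene length, 32 moved and 32 did not.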

Other observations

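Red blood cell genes (5 haemoglobin and haem synthesis genes) summed to 2237 and 7292 CPM at E13, to 20.1 and 85.5 CPM at E15 and to at most 4.31 CPM at P12. Radial glia markers (8 genes) summed to 241.6 to 323.0 CPM in the embryo, 4635 and 3823 CPM in normoxia and 5071 and 4836 CPM in hypoxia. Slc1a3 alone had 1.09 to 19.4 CPM in the embryo and 2412 to 3435 CPM at P12, most of each P12 sum. In normoxia against embryo 6 of the 8 had a positive log2 fold change and 2, Vim and Nes, a negative one. Vim had 199.3 and 208.2 CPM at E13, 101.6 and 95.9 CPM in normoxia and 140.0 and 22.1 CPM in hypoxia. Mrpl47, a mitochondrial ribosomal protein gene next to Actl6a, had 22.8 to 28.1 CPM in the embryo, 0.0953 and 16.8 CPM in normoxia, and 0.0 and 0.074 CPM in hypoxia.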
